A study of Mus musculus with 6 samples.

Results

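Slc5a1, Slc26a11 and Slc51a encode membrane carriers for glucose, for anions and for bile acids. They are 3 of the 122 genes that the authors' gene table pairs with a feature of a liver array holding 45220 features, and they were picked from that table by symbol. The table lists genes beside ratios of extract-treated to control mice, and those ratios come from the same 6 livers described here. No source used here says how those genes were chosen. The extract and control values of the 3 carriers are therefore given as a description, with no test for any of them. The 6 livers came from male mice aged 8 weeks at day 0, 1 mouse per array, all kept on standard chow with water ad libitum. The control group received water by gavage (n = 3). The other group received an aqueous extract of Ziziphus jujuba, the jujube tree, at 6 mg/mL (n = 3). Each mouse was given 500 µl every day for 20 days. The labels name neither a mouse strain nor a genetic change. The labels name separate individuals, so n counts mice. The comparison bears on the hepatic response to the extract. Blood pressure, the study's other outcome, is not analysed here.

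Slc5a1 encodes SGLT1, which moves glucose into cells together with sodium and is best known from the brush border of the small intestine and from the kidney tubule. Slc26a11 belongs to the SLC26 family of anion exchangers and carries sulfate without a need for sodium. Slc51a encodes the alpha subunit of the organic solute transporter, OSTα, which forms a working carrier only together with the beta subunit (Slc51b) and exports bile acids across the basolateral membrane, above all in the ileum. In bile acid physiology Slc51a is a known target of the bile acid receptor FXR. In whole liver, fewer cells of a type and less RNA per cell cannot be told apart, so every level below is that of the whole tissue.

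The start regions of Slc5a1 and Slc51a are shown as the annotated promoters of these genes. Which start site the liver transcripts use was not measured. RefSeq windows of 300 bases, 250 before and 50 after the start site, were at hand for 2 of the 3 genes. The Slc5a1 window lies at chr5:33103969-33104268 on the plus strand and the Slc51a window at chr16:32487830-32488129 on the minus strand of GRCm38.p6. Both are written 5′ to 3′ on the gene's own strand, with the E-box CACGTG, a motif read by basic helix-loop-helix factors such as USF and CLOCK, in capitals.
Slc5a1: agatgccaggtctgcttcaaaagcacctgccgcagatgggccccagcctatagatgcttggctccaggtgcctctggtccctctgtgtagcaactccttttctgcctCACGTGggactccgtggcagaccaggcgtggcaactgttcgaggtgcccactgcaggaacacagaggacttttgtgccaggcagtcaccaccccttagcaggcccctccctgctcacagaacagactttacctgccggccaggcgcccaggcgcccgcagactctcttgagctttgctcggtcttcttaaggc
Slc51a: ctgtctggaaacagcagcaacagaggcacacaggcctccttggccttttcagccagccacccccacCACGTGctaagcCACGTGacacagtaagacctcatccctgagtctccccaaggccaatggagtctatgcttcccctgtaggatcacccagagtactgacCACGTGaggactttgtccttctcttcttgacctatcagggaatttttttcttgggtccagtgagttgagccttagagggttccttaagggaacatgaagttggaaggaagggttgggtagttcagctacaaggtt
The Slc51a window holds 3 copies of CACGTG, which begin 184, 172 and 85 bases before the start site. The Slc5a1 window holds 1 copy, 143 bases before the start. Of 32851 RefSeq windows of the same length, 7.15% hold the motif at least once and 0.0883% hold it 3 times or more. E-boxes were put in capitals after the windows had been read, so these shares are descriptions and enrichment was not tested.

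Other promoter motifs were searched on both strands. The CCAAT box is present once for Slc51a and in 37.4% of all windows, and the nuclear receptor half-site AGGTCA is present once for Slc51a and in 16.3%. The Slc5a1 window holds neither. The TATA box with the letters TATAAA (13.6% of windows) and the GC box with the letters GGGCGG (35.7%) are in neither window. The half-site was also searched as an inverted repeat with 1 base between the copies, the form bound by FXR (0.00913% of windows), and as a direct repeat with 1 base between, the form bound by HNF4 (0.0396%). Both of these contain the half-site itself. The HNF1 motif was searched as the letters GTTAAT, 1 base and their reverse complement (0.00913%). None of these 3 is in either window. A match describes these letters only, and no factor binding was measured. The windows are 60.3% G or C for Slc5a1 and 52.0% for Slc51a, against a median of 52.7% over all windows.

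On each array between 22.7% and 26.8% of the features exceeded an intensity of 100, and 9434 features did so on all 6 arrays. All 3 carriers are among these 9434, which are called bright features here, so none was lost to low signal. The median bright feature stood at -0.20, -0.19 and 0.13 in control mice 1, 2 and 3 (log2, relative to the mean of the arrays). In extract mice 1, 2 and 3 it stood at -0.13, 0.34 and 0.15, so the brightest array belonged to extract mouse 2 and the dimmest to control mouse 1. Values are therefore given as deposited and after quantile normalization, which gives all 6 arrays the same distribution. The array of extract mouse 1 stood apart, with correlations of 0.955 to 0.959 with the others over bright features, while the other arrays reached 0.981 to 0.985 with their nearest partner. Results are given with and without it. With 3 arrays a group, precision rests on the number of mice and not on depth.

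Slc5a1 was higher in every extract liver than in every control liver, by about the same amount in each mouse once the arrays were scaled. The deposited intensities were 1243, 1466 and 1605 in control mice 1, 2 and 3 and 1984, 2810 and 2552 in extract mice 1, 2 and 3. The groups did not overlap, with control mouse 3 the highest of the controls and extract mouse 1 the lowest of the extract group. After normalization the control intensities were 1458, 1689 and 1453, against 2421, 2268 and 2316 with the extract. Scaling moved extract mouse 1 from the lowest to the highest of its group. On the normalized log2 scale the mean was 10.58 ± 0.12 (SD, n = 3) in controls and 11.19 ± 0.05 (SD, n = 3) in extract livers. The difference was 0.61 (SE 0.13), or 1.53-fold, and 0.59 without extract mouse 1. Of the 3 carriers Slc5a1 had the smallest spread among extract mice after normalization, though not in the deposited values.

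Slc26a11 was also higher with the extract in every mouse, by a little more than Slc5a1 on average. Its deposited intensities were 189, 180 and 261 in control mice 1, 2 and 3 and 294, 468 and 435 in extract mice 1, 2 and 3. Extract mouse 1 lay nearer to control mouse 3 than to the other extract mice, though the groups did not overlap. After normalization the values were 224, 209 and 246.5 in controls and 329, 381 and 397 in the extract group. The mean normalized log2 value was 7.82 ± 0.12 (SD, n = 3) in controls and 8.52 ± 0.14 (SD, n = 3) in extract livers. The difference was 0.70 (SE 0.15), or 1.63-fold, and it was 0.80 without extract mouse 1. In the RefSeq gene table of GRCm38.p6, Slc26a11 overlaps Sgsh, which encodes the lysosomal sulfamidase. The strand and position of the array probe within Slc26a11 are not given in the files, so a contribution of Sgsh transcripts to this feature was not tested.

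After normalization Slc51a had the largest mean difference of the 3 and the widest spread among extract mice, while in deposited values its spread there was the narrowest (CV 10.7%, against 17.3% for Slc5a1 and 23.2% for Slc26a11). Its deposited intensities were 1470, 1299 and 2180 in control mice 1, 2 and 3 and 3514, 2859 and 3062 in extract mice 1, 2 and 3. The extract values lay close together, and control mouse 3 stood above the other controls. After normalization the values were 1709, 1502 and 1939 in controls and 4279, 2309 and 2751 in the extract group. Extract mouse 1 then stood far above mice 2 and 3, and extract mouse 2 was the nearest to the controls. The mean normalized log2 value was 10.74 ± 0.18 (SD, n = 3) in controls and 11.55 ± 0.46 (SD, n = 3) in extract livers. The difference was 0.82 (SE 0.28), or 1.76-fold, and fell to 0.56 without extract mouse 1. The partner subunit gene Slc51b and the FXR gene Nr1h4 are not among the genes that the files name.

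**Figure D1:**
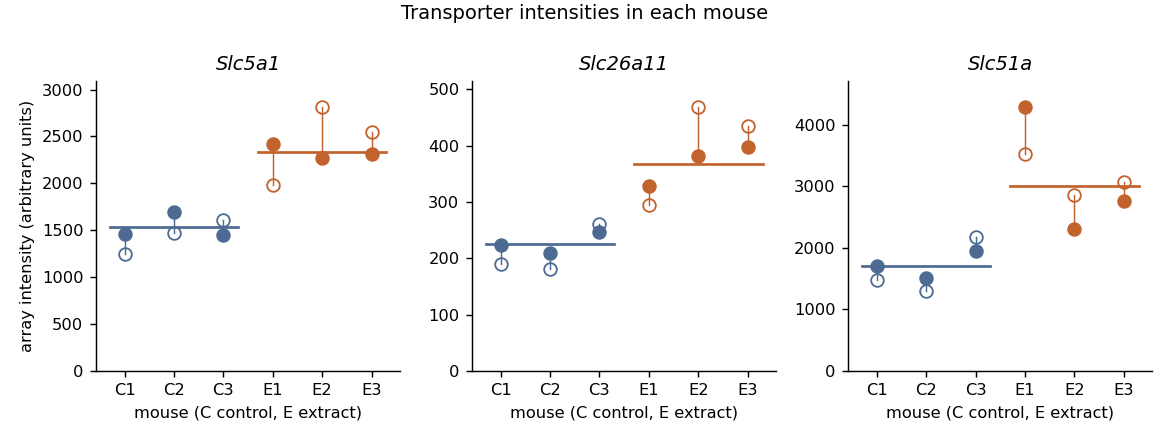
Array intensity (arbitrary units, linear axis from 0) of Slc5a1, Slc26a11 and Slc51a in control mice C1 to C3 and extract mice E1 to E3. Open circles are deposited values, filled circles the same values after quantile normalization, and horizontal lines the geometric mean of the normalized values in a group; all 3 extract mice lie above all 3 controls in each panel, and Slc51a in E1 rises from 3514 to 4279 on normalization.

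Relative to the mean of the controls, with no scaling, Slc51a stood at 2.13, 1.73 and 1.86 in extract mice 1, 2 and 3. Slc5a1 stood at 1.38, 1.95 and 1.77 and Slc26a11 at 1.40, 2.23 and 2.07. Slc51a was thus the only one of the 3 at 1.5-fold or more in every extract mouse, and the other carriers fell short in extract mouse 1. Over bright features, 0.784% met that rule. After normalization the ratios were 1.58, 1.48 and 1.51 for Slc5a1, 1.45, 1.68 and 1.76 for Slc26a11 and 2.49, 1.35 and 1.60 for Slc51a. None of the 3 then had every extract mouse at 1.5-fold, as 0.223% of bright features did.

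No feature of the array was called different between the groups. With limma across all 45220 features, 0 had a Benjamini-Hochberg adjusted p below 0.05, so percent called was 0%, and the 3 carriers were not among calls under any setting tried. Before adjustment, 2313 features (5.11%) had a limma p below 0.05. A test with unequal variances and no moderation likewise called 0 once adjusted. The looser rule of unadjusted p below 0.01 with at least 1.5-fold took in 2 of the 3 carriers as higher, Slc5a1 and Slc26a11, and 0 as lower, where it took in 0.531% of all features as higher and 0.949% as lower. Slc51a missed it on the p. Of 21 alternatives, 10 left 0 carriers past this rule, among them no scaling, all 4 centrings and the replicate block, and also leaving out control mouse 1, control mouse 2 or extract mouse 2. It was 1 carrier in 2 alternatives, 2 in 7, and 3 on bright features only and with trend and robust eBayes. Without extract mouse 1 the limma fit called 190 features, and none of the carriers was among them. The count of carriers with all extract mice above all controls was 3 of 3, both normalized and unscaled, where 9.54% of bright features were so placed after normalization and 14.1% without scaling. Since the table that supplied them lists ratios from these mice, nothing is read from these counts.

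Among the bright features, the median difference was -0.01 and the central range from the 5th to the 95th percentile was -0.48 to 0.41 on the normalized log2 scale. The median of the 3 carriers was 0.70, that of Slc26a11, and the median of the 122 table genes was 0.60. Larger differences than that of Slc51a were found in 24 bright features, or 0.254%. The numbers were 57 features for Slc26a11 (0.604%) and 117 for Slc5a1 (1.24%). Within the table, the carriers ranked 12 (Slc51a), 30 (Slc26a11) and 58 (Slc5a1) of 122, so Slc5a1 sat near the middle of the listed genes. Without scaling the shares of bright features with a larger difference were 0.360% for Slc51a, 0.488% for Slc26a11 and 1.63% for Slc5a1. Since the carriers come from a table of ratios from these mice, all these shares are descriptions only.

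**Figure D2:**
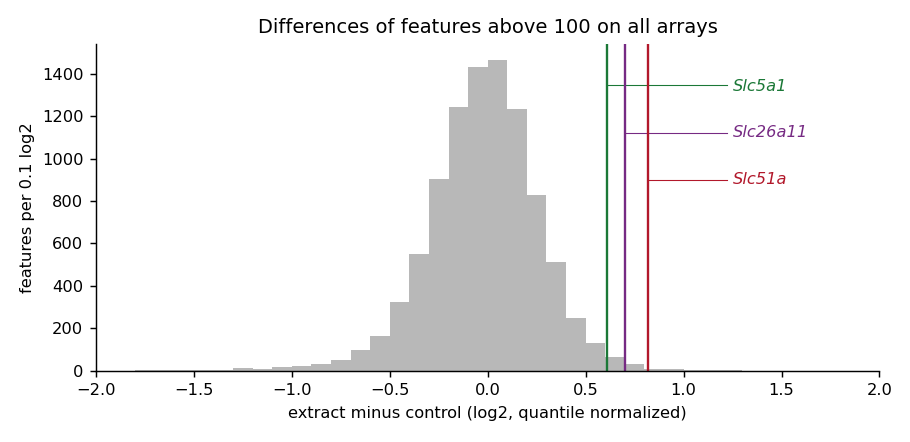
Number of bright features (above 100 on all 6 arrays, n = 9434) in each bin of 0.1 of the extract minus control difference (log2, quantile normalized), with vertical lines at Slc5a1 (0.61), Slc26a11 (0.70) and Slc51a (0.82). All 3 lines lie beyond the 95th percentile of bright features, 0.41, as does the median of the 122 table genes, 0.60. The carriers come from a table of ratios from these mice, so their place is a description only.

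How the arrays were scaled set the size of the differences, and in 2 settings their sign. Without scaling the differences were 0.76 for Slc5a1, 0.92 for Slc26a11 and 0.96 for Slc51a, while the median of all bright features was itself 0.18 higher in the extract group. Centring on the median or the 75th percentile of the bright features gave 0.60 and 0.61 for Slc5a1, 0.76 for Slc26a11 in both, and 0.80 and 0.81 for Slc51a, with a shift of 0.02 over bright features. Centring on the median of all features gave -0.24 for Slc5a1, -0.08 for Slc26a11 and -0.04 for Slc51a, and it moved the median of bright features to -0.82. Centring on the 75th percentile of all features gave -0.23, -0.08 and -0.03, with the bright features at -0.81. Relative to the shift of the bright features, the carriers were higher in the extract group in both.

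**Figure D3:**
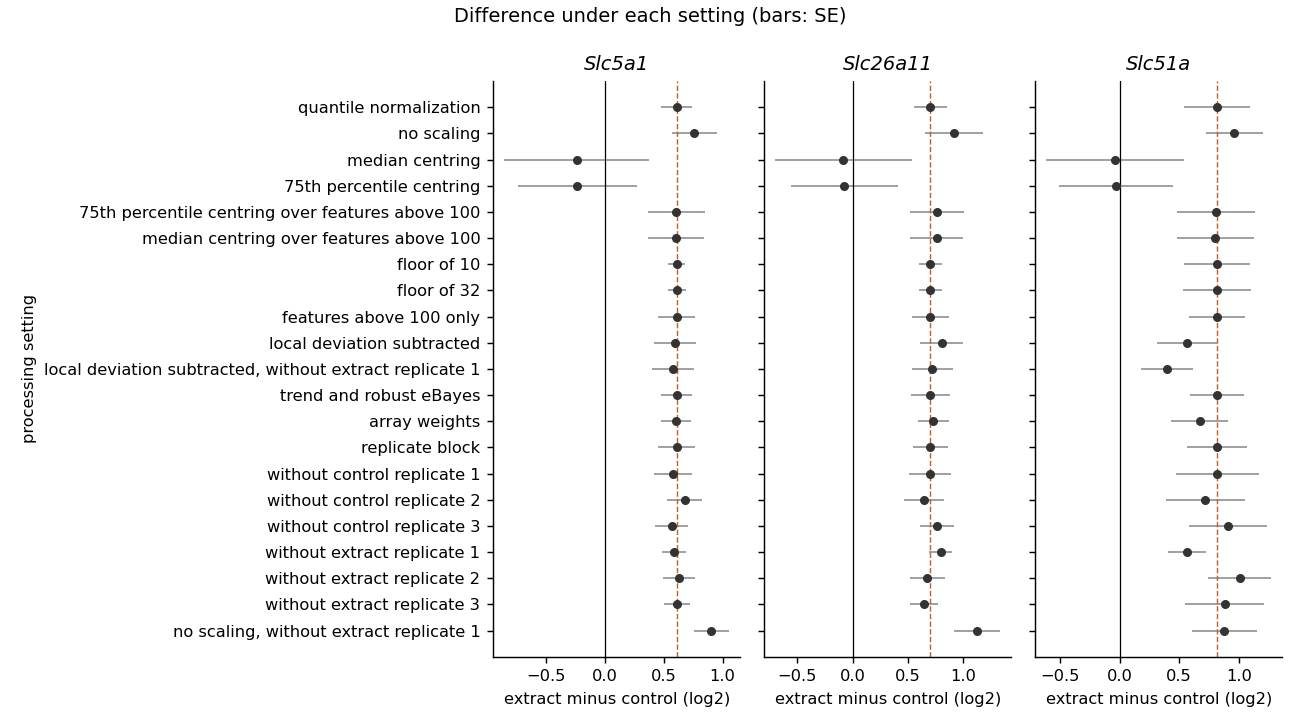
Extract minus control difference (log2) of each carrier under quantile normalization and 20 other settings, with bars of 1 SE and a dashed line at the quantile normalized value. Values below 0 occur only with median or 75th percentile centring over all features, and the lowest positive values are 0.57 for Slc5a1, 0.65 for Slc26a11 and 0.40 for Slc51a.

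Features that lie near each other on these arrays deviate together, so the surroundings of each carrier's feature were read as well. By feature number, in rows of 85, Slc5a1 sits in row 95 and column 46, Slc26a11 in row 374 and column 39, and Slc51a in row 222 and column 60, far apart from each other. The local deviation is the median, over neighbours in a square of 11 by 11 features, of the difference from the mean of the arrays. Neighbours counted here exceeded 100 on at least 4 arrays and numbered 29 for Slc5a1, 33 for Slc26a11 and 41 for Slc51a.

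Around Slc5a1 the neighbours differed by 0.01 between extract and control arrays, so that subtraction left a difference of 0.60 (SE 0.18). Around Slc26a11 the neighbours were lower by 0.10 in the extract group, and -0.36 in extract mouse 1 alone, where the gene itself was at its lowest for that group. With the local deviation subtracted, extract mouse 1 became the highest of its group for Slc26a11 (8.72, against 8.42 and 8.54 in mice 2 and 3, log2), and the difference was 0.80 (SE 0.19).

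Around Slc51a the neighbours moved with the gene. They were at -0.13, -0.13 and -0.11 on control arrays 1, 2 and 3 and at 0.29, 0.06 and 0.03 on extract arrays 1, 2 and 3, a group difference of 0.25. With these subtracted, Slc51a differed by 0.57 (SE 0.25), the smallest of the 3, and by 0.40 when extract mouse 1 was left out as well. The gap between the lowest extract and the highest control mouse narrowed from 0.25 to 0.08 for Slc51a, whereas it was 0.42 before and 0.43 after subtraction for Slc5a1 and 0.41 and 0.55 for Slc26a11. The order of the carriers by size of difference was therefore Slc51a, Slc26a11, Slc5a1 after normalization, and Slc26a11, Slc5a1, Slc51a with local deviations subtracted. These orders separate the genes by less than their standard errors combined. After subtraction all 3 carriers still had every extract mouse above every control, as did 10.6% of bright features.

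**Figure D4:**
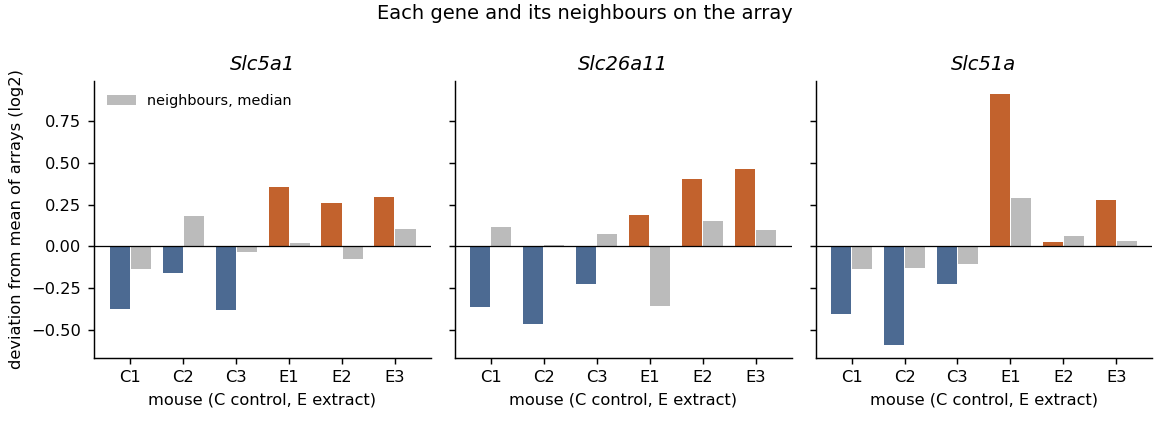
Deviation of each carrier from its mean over the 6 arrays (log2, normalized; blue for control and orange for extract mice) beside the median deviation of its neighbours on the array (grey). The neighbours of Slc51a are below 0 on all 3 control arrays and above 0 on all 3 extract arrays, with 0.29 in extract mouse 1, whereas those of Slc26a11 are at -0.36 there.

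A ratio of a pair of carriers on the same array does not depend on a scaling factor for that array. Its size has no meaning across probes, so only its changes between mice are of use. Deposited Slc5a1 over Slc26a11 was 2.79 ± 0.21 (SD, n = 3) in controls and 2.63 ± 0.11 (SD, n = 3) in extract livers on the log2 scale. Slc5a1 over Slc51a was -0.17 ± 0.31 (SD, n = 3) and -0.37 ± 0.41 (SD, n = 3). Slc26a11 over Slc51a was -2.96 ± 0.11 (SD, n = 3) and -3.00 ± 0.51 (SD, n = 3). Between groups these ratios moved by -0.16, -0.20 and -0.04, and the groups overlapped in all 3, so a change of a carrier relative to another was not seen beyond the spread between mice. In extract mouse 1 Slc26a11 over Slc51a was -3.58, below its value in every other mouse (-3.06 to -2.61).

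The likeness of the carriers over the 6 arrays was not seen within the groups. Over all arrays normalized values correlated at 0.87 for Slc5a1 with Slc26a11, 0.80 for Slc5a1 with Slc51a and 0.72 for Slc26a11 with Slc51a. These correlations contain the difference between the groups. For deviations from the group means they were -0.73, 0.03 and -0.39 in the same order. The arrays are few and each carries its own scaling, so these are descriptions only.

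Each carrier was then set beside the 121 other genes of the table by Pearson correlation over the 6 arrays. The genes named below are the 3 highest for each carrier. Their correlations for deviations from the group means use the same arrays and were not set against other features. Those values are descriptions only. Most like Slc5a1 were the nuclear import receptor gene Kpna2 (r = 0.978), the beta-defensin gene Defb3 (0.974) and the hedgehog pathway kinesin gene Kif7 (0.973), with 0.61, 0.88 and 0.74 for deviations from the group means. Kif7 sits 2 rows and 3 columns from Slc5a1 on the array, inside the same neighbourhood. Most like Slc26a11 were Gja1, which encodes a gap junction connexin (0.977), the noncoding RNA gene Mirt2 (0.965) and Dsp, which encodes desmoplakin of the desmosome (0.946), with 0.78, 0.70 and 0.68 for deviations. Gja1 lies 6 rows and 8 columns away from Slc26a11. With local deviations subtracted, the correlations over the 6 arrays were 0.92, 0.73 and 0.96 for Kpna2, Defb3 and Kif7 with Slc5a1, and 0.96, 0.78 and 0.87 for Gja1, Mirt2 and Dsp with Slc26a11.

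Most like Slc51a were Ranbp3l (0.990), the endophilin gene Sh3gl1 (0.981) and the myotubularin-related gene Mtmr9 (0.973), with 0.97, 0.94 and 0.92 for deviations from the group means. All 3 shared with Slc51a the high value in extract mouse 1, which also enters the deviations. Over the other 5 arrays their correlations with Slc51a were 0.97, 0.98 and 0.92, and with local deviations subtracted 0.94, 0.97 and 0.98. Correlations at least as high as that of the third gene named were found for 0.265% of bright features with Slc5a1, 0.392% with Slc26a11 and 0.17% with Slc51a. A correlation over 0.9 was found with Slc5a1 for 26 of the 121 genes and 2.35% of bright features. It was found with Slc26a11 for 15 genes and 1.24%, and with Slc51a for 18 genes and 1.84%. Correlations over both groups contain the group difference. After normalization the median of that difference was 0.60 for the table genes and -0.01 for bright features. The higher shares among the table genes are therefore descriptions only, and shared regulation was not tested.

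**Figure D5:**
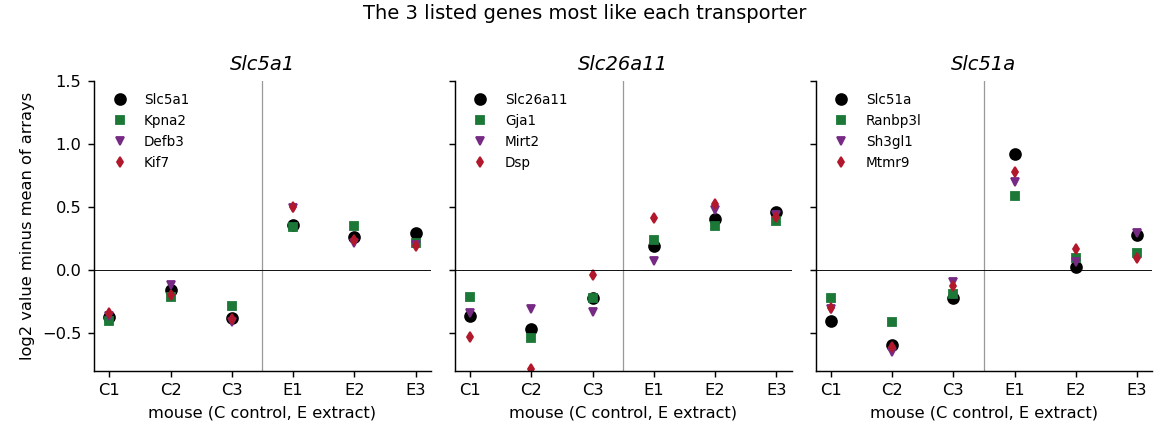
Normalized log2 value minus its mean over the 6 arrays for each carrier (black circles) and the 3 table genes with the highest correlation to it (coloured symbols), by mouse, with controls left and extract mice right of the grey line. In the Slc51a panel all 4 genes are highest in E1. In the Slc5a1 panel Slc5a1, Defb3 and Kif7 are highest in E1 as well. The extract mice lie closer together in the Slc5a1 and Slc26a11 panels than in the Slc51a panel.

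Few other transport genes can be read, since the files name only 122 genes. Of 20 genes listed for glucose transport, 11 of the SLC26 family and 25 for bile acid transport and its regulators, the files name 1 each, the carrier itself, and 0 of these passed the limma threshold in either direction. A search of the table by a fixed list of symbol prefixes of carriers, pumps and channels gave 4 genes. They were the 3 carriers and Slco4c1, an organic anion transporter best known from the kidney. Slco4c1 had deposited intensities of 786, 714 and 860 in control mice 1, 2 and 3 and 1323, 2018 and 1075 in extract mice 1, 2 and 3. The groups did not overlap, and extract mouse 3 lay closest to the controls. Its normalized difference was 0.71 (SE 0.25), and 0.81 with local deviations subtracted. It did not pass the limma threshold. The prefixes did not cover every transport or channel gene of the table. Gja1, the receptor channel subunit gene Gabrg3 and Tspo2, listed there under cholesterol transport, were outside them. Their normalized differences were 0.65, 0.71 and 0.50, and 0.59, 0.47 and 0.27 with local deviations subtracted.

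The tissue label could be checked only in part. Of 16 hepatocyte markers the files name Cyp4a12a, a fatty acid omega-hydroxylase of male liver, with normalized means of 7.82 ± 0.04 (SD, n = 3) in controls and 8.49 ± 0.14 (SD, n = 3) in extract livers (log2), and 8.40 without extract mouse 1. They also name Vnn1, a pantetheinase, with 9.89 ± 0.26 (SD, n = 3) and 9.51 ± 1.13 (SD, n = 3), where extract mouse 1 was at 8.31 and the mean of the other extract mice at 10.12. Of 8 endothelial markers they name Fcgr2b, which encodes an inhibitory receptor for immunoglobulin G, with 8.29 ± 1.11 (SD, n = 3) and 7.93 ± 2.40 (SD, n = 3), where extract mouse 1 was at 5.18 and the mean of the other extract mice at 9.30. For both Vnn1 and Fcgr2b, the lower mean of the extract group came from that mouse. Deposited Cyp4a12a intensities were 197, 190 and 237 in control mice 1, 2 and 3 and 354, 422 and 368 in extract mice 1, 2 and 3. The normalized differences of Cyp4a12a, Vnn1 and Fcgr2b were 0.67, -0.37 and -0.36. With local deviations subtracted they were 0.35, -0.10 and -0.09. None of the 10 cholangiocyte markers, the 9 of Kupffer cells and other leukocytes, the 7 of stellate cells or the 10 of intestine, kidney, pancreas and red cells is named. The part of other cell types in the levels of the 3 carriers was therefore not tested.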

How the data were processed

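The authors deposited 1 intensity per feature and array for 45220 features of a 1-colour Agilent array, from 0.2 µg of RNA labelled with Cy3 per the labels' protocols. Agilent Feature Extraction is named in the submitters' processing notes, with no version or background correction stated, and values reach below 0. Genes were taken from the authors' table by symbol and feature number, and its ratio columns were not used. Of 122 accessions, 111 were found in a RefSeq table (GRCm38.p6), all with the same symbol, the 3 carriers included.

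Intensities were quantile normalized, values under 1 set to 1 and log2 taken. Groups of 3 were compared with limma 3.58.1 in R 4.3.3 (lmFit, eBayes, two-sided, Benjamini-Hochberg over all features, threshold 0.05), and the fit was tested on simulated data. SE are those of this fit. Feature positions came from the feature number in rows of 85: deviations correlated at 0.267 to 0.406 across 85 numbers, against medians of 0.059 to 0.157 at other distances. Named genes are the carriers, other transport and channel genes, the 3 genes most correlated with each carrier and the named liver markers. Members and lists were chosen with earlier results of these data known. Alternatives covered scaling, floor, filter, array position, variance model, replicate block and leaving out each array. Deviations from the group means correlated between mice of the same number at 0.04, 0.15 and 0.25. Between mice of different numbers they correlated at -0.19 to 0.03, lower than each of these. The main fit did not take the numbers as pairs, and the replicate block did so as an alternative. Whether mice of the same number shared a source of variation was not tested.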

Additional observations from a re-analysis of the deposited data

How the results depend on the processing

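Differences of the 3 carriers kept their sign under 18 of 20 alternatives each. They moved by less than the spread between mice in 16 for Slc5a1, 16 for Slc26a11 and 17 for Slc51a. The spread is each gene's own SD within groups and was widest for Slc51a, so these counts do not rank the carriers by stability. The signs turned with median centring over all features (-0.24 for Slc5a1, -0.082 for Slc26a11, -0.038 for Slc51a) and with 75th percentile centring over all features (-0.23, -0.075 and -0.031). In these settings the median difference was -0.82 and -0.81 over bright features, and -0.56 and -0.55 over all features. In other settings a difference kept its sign but moved by more than that spread. Without scaling the difference was 0.76 for Slc5a1 and 0.92 for Slc26a11. Without scaling and without extract mouse 1 (chosen after seeing the data) it was 0.91 and 1.12. With local deviations subtracted and without extract mouse 1 it was 0.40 for Slc51a. With 1 array left out, differences were 0.57 to 0.68 for Slc5a1, 0.65 to 0.80 for Slc26a11 and 0.56 to 1.01 for Slc51a, lowest for Slc51a without extract mouse 1. The count of 0 called features became 31 without scaling, 2 with a floor of 10, 1 with a floor of 32, 642 without scaling and without extract mouse 1, and from 0 to 190 on leaving out single arrays (190 when extract mouse 1 was dropped, 41 when extract mouse 3 was). The carriers were called in none of these. The looser rule (unadjusted p below 0.01, at least 1.5-fold) took in 669 features, 240 higher and 429 lower. That number became 1276 without scaling (1209 higher, 67 lower), 217 with a floor of 10, 133 with a floor of 32, 155 on bright features, 359 with trend and robust eBayes, 207 with the unmoderated test, 2056 without scaling and without extract mouse 1, and from 783 to 1154 on leaving out single arrays (1154 when control mouse 3 was dropped). Centring on bright features gave 779 higher and 75 lower (75th percentile) or 776 and 74 (median), and centring on all features 27 and 749 (75th percentile) or 69 and 479 (median). The replicate block gave 0 and 454 features and left the carriers' differences at 0.61, 0.70 and 0.82, but 0 carriers then passed the looser rule, against 2 without the block. The cause of these changes was not tested.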
